A study of Bos taurus with 8 samples.

Results

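The secreted factors TGFB1, TGFB2, TGFB3, INHBA, BMP2, BMP4, BMP5, BMP6 and BMP7 and the BMP antagonist GREM1 were described in the rumen, the stomach compartment in which microbes ferment plant feed. These 10 genes were chosen by symbol, and all 10 were found among the 33132 genes of the deposited count table. RNA was sequenced from the rumen of 4 adult steers (castrated males) and 4 newborn male calves, all of Angus cross breed, with 1 library per animal. The series asks which genes and signalling pathways accompany rumen growth after birth. Steers differ from calves in age and castration together, and the labels give no age in days, diet, batch or layer of the rumen wall. Each library held 42322022 to 54449684 counts.

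TGF-beta family ligands are secreted as dimers that bring together type I and type II serine/threonine kinase receptors at the cell surface. TGF-betas and activins mainly signal through SMAD2 and SMAD3, and BMPs through SMAD1, SMAD5 and SMAD9, with SMAD4 as the shared partner. Secreted antagonists such as gremlin, noggin and follistatin bind ligands outside the cell, and latent TGF-beta is held in the matrix until it is released. In the gut these factors pass between the mesenchyme and the epithelium during development and renewal.

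Of the 10 genes, all of which passed the filter on low counts, BMP6 rose in steers, TGFB3 and BMP7 fell, and the other 7 did not pass the test (edgeR quasi-likelihood test, Benjamini-Hochberg adjusted p under 0.05). By comparison, 16.9% of the 16326 genes tested were called, 7.7% as higher and 9.16% as lower in steers. DESeq2's Wald test called 25% and limma-voom 17.4% of all genes tested, and both called the same number of the 10 genes, 3. The levels of steers and calves did not overlap for the same 3 of the 10 genes, and for 23.3% of all genes tested. The median log2 change, steer minus calf, was 0.21 over the 10 genes and 0.04 over all genes tested. The 3 calls made up 30.0% of the 10 genes, and with so few genes this share is not read as a property of the set.

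**Figure D1:**
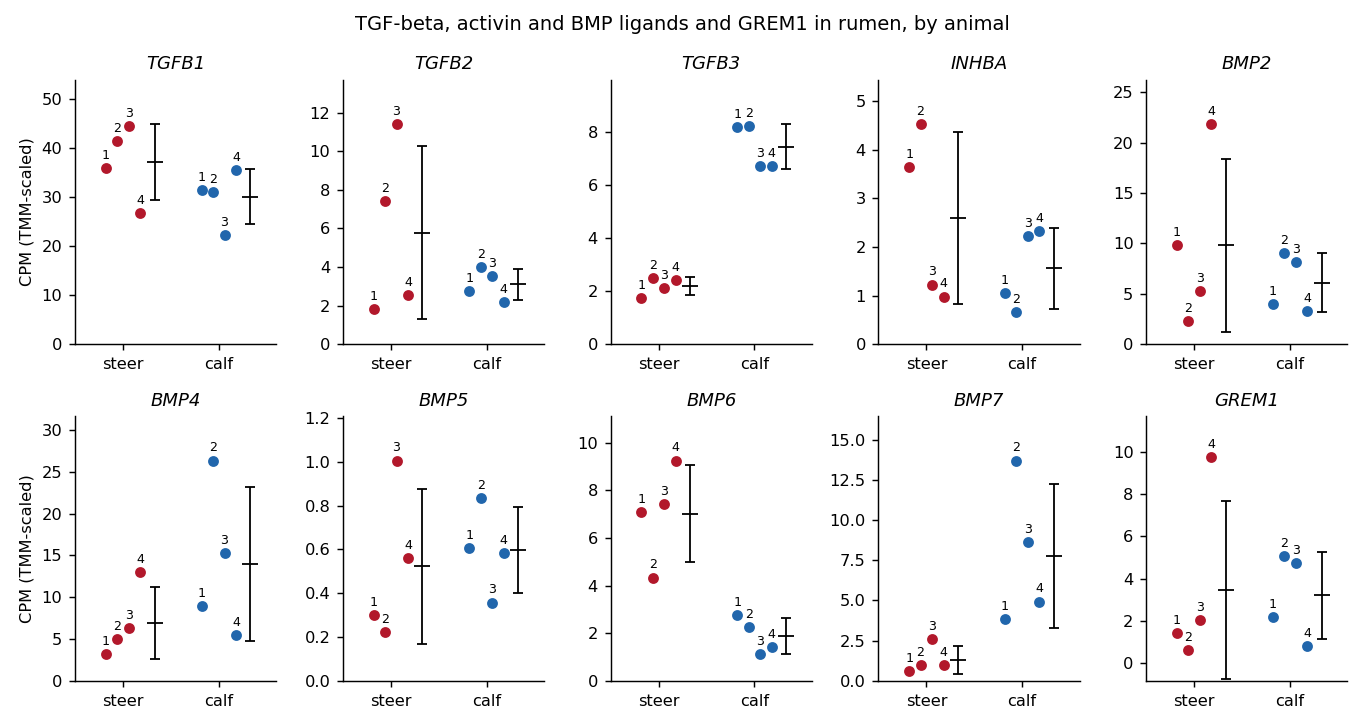
CPM (counts scaled to a common library size, with TMM) of the 10 genes in each animal, with the animal's number above its point and the mean ± SD of 4 animals beside it; each panel has its own axis. The 4 steers sit below all calves for TGFB3 and BMP7 and above all calves for BMP6, and steer 4 stands far above the other steers for GREM1 and BMP2.

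Markers of the cell types that a piece of rumen wall can hold differed in level between the groups and are given first. KRT5, the keratin of basal squamous cells, had 3932, 3919, 3467 and 2646 CPM in steers 1 to 4, against 2929, 3133, 3446 and 3134 CPM in calves 1 to 4, so both groups held squamous epithelium. The summed CPM of 10 smooth muscle markers ranged from 9482 to 92889 in steers and from 4564 to 13475 in calves, and steer 4 had the lowest sum of the steers. Of the 7 tested, 4 were called higher and none lower. Of these markers KCNMB1 had no count, as its whole span is shared with another gene. CASQ2 and SYNPO2 stayed under 1 CPM in all libraries, and 96.3% of the span of SYNPO2 is shared with other genes. The sums of 10 fibroblast markers ran from 649.7 to 1477 CPM in steers and from 1734 to 4977 CPM in calves, with the highest in calf 2. For 10 endothelial markers they ran from 273 to 323 CPM in steers and from 353 to 804 CPM in calves. For 10 enteric neuron and glia markers they ran from 19.1 to 28.6 CPM in steers and from 41.6 to 56.6 CPM in calves. These 3 sums were lower in every steer than in every calf, although single markers were mixed. Called lower were 3 fibroblast markers (DCN, COL1A1 and COL1A2), 3 endothelial markers and 4 neural markers, none was called higher, and 3 fibroblast and 2 neural markers had a log2 change above 0 without passing. As a mean of log2 CPM, in which abundant collagens weigh no more than the rest, the fibroblast markers overlapped between the groups, at 4.74 to 5.56 in steers and 5.51 to 6.99 in calves. The 10 basal keratinocyte markers summed to 8513 to 16256 CPM in steers and 11824 to 17238 CPM in calves, with 2 called higher and 1 lower. Their mean of log2 CPM, used below as a covariate, leaned the other way, at 8.47 to 8.84 in steers and 8.17 to 8.59 in calves. The 10 macrophage markers summed to 28.9 to 74.0 CPM in steers and 37.3 to 38.8 CPM in calves, and 2 of 9 tested were called higher and none lower. Of 5 mesothelial markers tested, 1 was called higher and 1 lower. Among 7 mesothelial markers in the table, summing to 56.6 to 137 CPM in steers and 31.9 to 64.0 CPM in calves, WT1 had no count, and the macrophage marker AIF1 had none because its span is shared. In such bulk samples fewer cells of a type and less RNA per cell cannot be told apart.

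TGFB1 encodes the most widely expressed TGF-beta isoform and lies on chromosome 18 (50484473 to 50508628, as for all genes here by the file's own positions, with no build named). It had 35.9, 41.4, 44.6 and 26.8 CPM in steers 1 to 4, against 31.4, 31.1, 22.3 and 35.5 CPM in calves 1 to 4. The ranges overlapped, with steer 4 the lowest steer and calf 3 the lowest calf. Means were 37.1 ± 7.8 CPM in steers and 30.1 ± 5.6 CPM in calves (SD, n = 4 each), a log2 change of 0.30 ± 0.22 (SE) that did not pass the test (adjusted p = 0.388). Its 95% interval, -0.19 to 0.80, was the narrowest of the 10. Part of its counted span (15.9%) is shared with CCDC97, and reads in the shared stretch were not counted for either gene.

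TGFB3 encodes an isoform best known from development, where its loss in mice leaves the palate open (chromosome 10, 87237854 to 87270902). It had 1.75, 2.48, 2.10 and 2.40 CPM in steers 1 to 4, against 8.15, 8.20, 6.69 and 6.69 CPM in calves 1 to 4. Every steer lay below every calf, and within each group the animals were close together. The coefficient of variation was 15.2% in steers and 11.5% in calves, the lowest of the 10 genes in either group. TGFB3 averaged 2.18 ± 0.33 CPM in steers and 7.43 ± 0.86 CPM in calves, 3.40-fold lower in steers (log2 change -1.77 ± 0.26, adjusted p = 0.002). The call held in each of 22 other settings, and the log2 change stayed between -1.88 and -1.66. The summed fibroblast, endothelial and neural markers were lower in steers as well, and their part in the change of TGFB3 was not tested. When smooth muscle content, as the mean log2 CPM of its markers, entered the fit, the log2 change was -1.82.

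TGFB2, an isoform needed for heart and skeletal development in mice (chromosome 16, 21807924 to 21903007), varied widely in steers. Its levels were 1.80, 7.41, 11.4 and 2.52 CPM in steers 1 to 4, against 2.75, 4.00, 3.51 and 2.18 CPM in calves 1 to 4. Steers 2 and 3 lay above all calves, and steers 1 and 4 lay among or below them. The mean log2 CPM of the smooth muscle markers was 7.79, 8.61, 8.16 and 6.66 in steers 1 to 4, against 6.83, 6.79, 5.99 and 6.57 in calves 1 to 4. It was highest in steers 2 and 3, as TGFB2 was, but lowest among steers in steer 4, whereas TGFB2 was lowest in steer 1. In steers 1, 2 and 3 the marker mean lay above every calf, so fits with it as a covariate cannot fully separate it from group. The log2 change of TGFB2 was 0.90 ± 0.55 (adjusted p = 0.303, 95% interval -0.34 to 2.13), and it turned to -0.30 with this marker mean as a covariate.

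INHBA encodes the beta A subunit, which forms activin A as a homodimer and inhibin A together with INHA (chromosome 4, 79279914 to 79300035). Its levels were low, at 3.65, 4.54, 1.23 and 0.982 CPM in steers 1 to 4 and 1.05, 0.669, 2.23 and 2.32 CPM in calves 1 to 4. Steers 1 and 2 stood above all calves, while steers 3 and 4 fell within the range of the calves. Means of 2.60 ± 1.77 CPM in steers and 1.57 ± 0.83 CPM in calves differed by 0.73 ± 0.60 on the log2 scale (adjusted p = 0.45), and the 95% interval of -0.61 to 2.06 holds changes of several fold in the higher direction. The change was -0.039 with the smooth muscle covariate.

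BMP2 and BMP4 are close relatives that pattern the mesenchyme and epithelium of the gut. BMP4 (chromosome 10, 66518533 to 66532572) had 3.20, 4.96, 6.30 and 13.04 CPM in steers 1 to 4, against 8.94, 26.3, 15.3 and 5.44 CPM in calves 1 to 4. The highest steer and the lowest calf made the groups overlap. BMP4 averaged 6.87 ± 4.30 CPM in steers and 13.998 ± 9.18 CPM in calves, a log2 change of -1.02 ± 0.54 that did not pass (adjusted p = 0.229, 95% interval -2.23 to 0.19). The change was -1.54 without steer 4 (adjusted p = 0.0684) and -0.52 without calf 2 (adjusted p = 0.534). With the smooth muscle or basal keratinocyte marker mean as a covariate it was -0.43 or -0.34.

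BMP2 (chromosome 13, 49152163 to 49163417) had 9.80, 2.34, 5.31 and 21.9 CPM in steers 1 to 4, against 4.01, 9.03, 8.16 and 3.26 CPM in calves 1 to 4. Steers both exceeded and fell below all calves. The log2 change was 0.68 ± 0.62 (adjusted p = 0.494, 95% interval -0.70 to 2.07). Its sign rested on steer 4, since the change was -0.071 without that library. With the smooth muscle marker mean as a covariate, BMP2 passed as higher in steers at 1.97 (adjusted p = 0.0405).

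BMP5, BMP6 and BMP7 form a second group of related ligands, and they went different ways. BMP6 is known in mouse and human liver as the inducer of the iron hormone hepcidin (chromosome 23, 47502057 to 47662629). It had 7.07, 4.34, 7.41 and 9.26 CPM in steers 1 to 4, against 2.75, 2.28, 1.12 and 1.42 CPM in calves 1 to 4. The lowest steer lay above the highest calf. BMP6 averaged 7.02 ± 2.03 CPM in steers and 1.89 ± 0.75 CPM in calves, 3.71-fold higher in steers (log2 change 1.89 ± 0.38, adjusted p = 0.00875). The call held in each of 22 other settings, between 1.71 and 2.13, and the change was 2.06 with the smooth muscle covariate and 1.87 with the basal keratinocyte covariate.

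BMP7, needed for kidney and eye development in mice (chromosome 13, 58889622 to 58975046), had 0.60, 1.00, 2.59 and 1.02 CPM in steers 1 to 4, against 3.82, 13.7, 8.63 and 4.94 CPM in calves 1 to 4. All steers lay below all calves, although calf 2 was well above the other calves and steer 3 above the other steers. Levels averaged 1.30 ± 0.88 CPM in steers and 7.77 ± 4.46 CPM in calves, 5.94-fold lower in steers (log2 change -2.57 ± 0.56, adjusted p = 0.0129), the farthest from 0 of the 10. The call held with any 1 library left out (-3.15 without steer 3 to -2.15 without calf 2). It ended with the smooth muscle marker mean (-2.90, adjusted p = 0.0735) or the basal keratinocyte marker mean (-2.07, adjusted p = 0.0517) as a covariate. The change lay farther from 0 with the smooth muscle covariate than without it, and nearer to 0 with the basal keratinocyte covariate. As given for TGFB2, the smooth muscle marker mean cannot be fully separated from group. The summed fibroblast markers were also highest in calf 2, and their part in the BMP7 difference was not tested.

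BMP5 (chromosome 23, 4470532 to 4614743) was the least abundant of the 10, with 8 to 54 counts in steers and 17 to 50 counts in calves. It had 0.30, 0.223, 1.01 and 0.561 CPM in steers 1 to 4 and 0.606, 0.836, 0.358 and 0.586 CPM in calves 1 to 4. The groups overlapped, and no difference passed the test (log2 change -0.18 ± 0.56, adjusted p = 0.864, 95% interval -1.43 to 1.07). As each mate of a pair added to the count, these figures rest on still fewer fragments. A p that misses the threshold, here and for the other 6 uncalled genes, does not show that steers and calves had the same level.

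**Figure D2:**
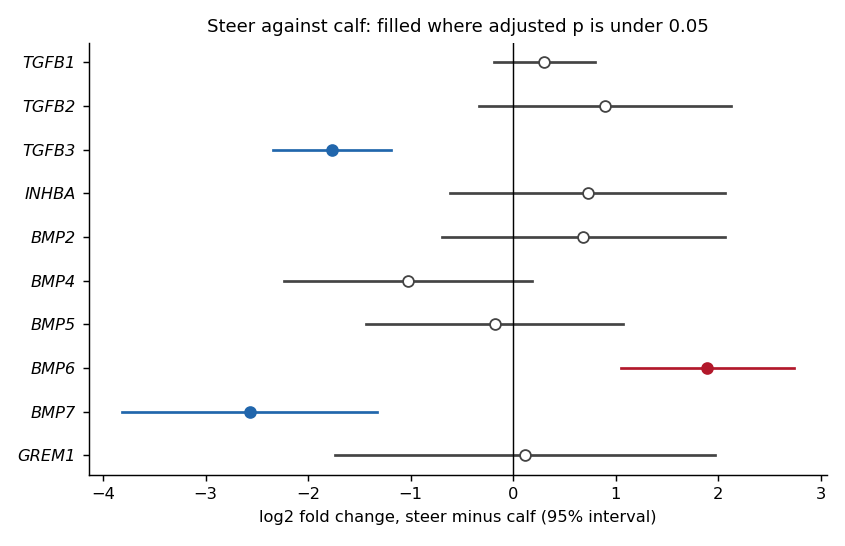
Log2 fold change, steer minus calf, with its 95% interval from the edgeR fit for each of the 10 genes; filled points passed at an adjusted p under 0.05. The intervals of TGFB3 (-2.34 to -1.19) and BMP7 (-3.82 to -1.32) lie below 0 and that of BMP6 (1.05 to 2.74) above it, while the other 7 cross 0.

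GREM1 encodes gremlin, an antagonist that binds BMP2, BMP4 and BMP7 and is made by muscle and subepithelial mesenchymal cells in the mouse and human gut (chromosome 10, 29962966 to 29978875). It had 1.40, 0.612, 2.05 and 9.75 CPM in steers 1 to 4, against 2.19, 5.09, 4.71 and 0.795 CPM in calves 1 to 4. Steer 4 alone exceeded every calf, and the other 3 steers lay within or below the range of the calves. Means were nearly equal, at 3.45 ± 4.24 CPM in steers and 3.20 ± 2.05 CPM in calves, with a log2 change of 0.12 ± 0.83 (adjusted p = 0.947). Without steer 4 the change was -1.23 (adjusted p = 0.234), while it was 1.47 with the smooth muscle and 1.17 with the basal keratinocyte covariate, and neither passed. The 95% interval with all animals, -1.74 to 1.97, leaves the direction undetermined.

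GREM1 and the ligands it binds shared part of their order among animals of the same group. In calves, GREM1, BMP2 and BMP4 had the same order, with calf 2 the highest, then calf 3, calf 1 and calf 4, and BMP7 also had calf 2 and calf 3 as its highest animals. Among steers, GREM1, BMP2 and BMP4 were all highest in steer 4, the steer with the lowest smooth muscle marker sum, whereas BMP7 was highest in steer 3. With 4 animals per group, these orders are a description. When calf 2 and steer 4 were both left out, the log2 change was -0.91 for GREM1, 0.18 for BMP2, -1.04 for BMP4 and -2.04 for BMP7, and BMP7 was still called (adjusted p = 0.0444). In that comparison GREM1 averaged 1.35 ± 0.72 CPM in 3 steers and 2.57 ± 1.99 CPM in 3 calves.

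Ratios of counts between a pair of these genes within a library do not depend on how libraries are scaled. The 7 pairs were picked with the counts in view, so they are given without a test. BMP6 over BMP7 was 11.8, 4.33, 2.86 and 9.10 in steers 1 to 4, against 0.72, 0.166, 0.129 and 0.288 in calves 1 to 4, so that counts of BMP6 exceeded those of BMP7 in every steer and stayed below them in every calf. TGFB1 over TGFB3 ranged from 11.1 to 21.2 in steers and from 3.33 to 5.31 in calves, and TGFB2 over TGFB3 from 1.03 to 5.42 in steers and from 0.325 to 0.525 in calves. In all 3 cases the groups did not overlap, and TGFB3 or BMP7, both lower in steers, was the denominator. GREM1 over BMP7 followed the same pattern, at 0.611 to 9.59 in steers and 0.161 to 0.573 in calves, with the highest value in steer 4. GREM1 over BMP4 ran from 0.124 to 0.747 in steers and from 0.146 to 0.309 in calves, and GREM1 over BMP2 from 0.143 to 0.446 in steers and from 0.244 to 0.577 in calves. For BMP2 over BMP4 the values were 0.472 to 3.06 in steers and 0.343 to 0.60 in calves. These last 3 ratios overlapped between the groups.

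**Figure D3:**
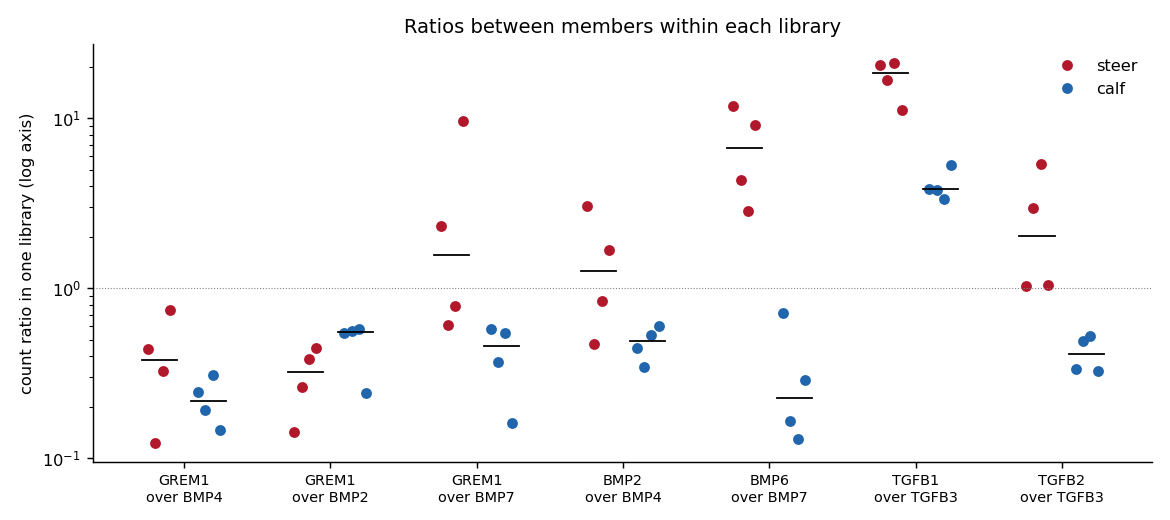
Ratio of counts of 2 genes in the same library, on a log axis, for 4 steers (red, left) and 4 calves (blue, right), with a bar at the group median. The groups are apart for BMP6 over BMP7 (medians 6.72 in steers and 0.227 in calves), TGFB1 over TGFB3, TGFB2 over TGFB3 and GREM1 over BMP7, and overlap for the other 3 pairs.

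Levels of different genes were compared as CPM per kilobase of the counted length. That length runs over whole transcript spans, introns included, so genes with long introns such as BMP5, BMP6, BMP7 and TGFB2 come out low and the order is only a rough one. In steers it ran from TGFB1 (1.54 ± 0.32 CPM per kilobase) through BMP2 (0.873 ± 0.763), BMP4 (0.49 ± 0.31), GREM1 (0.217 ± 0.266), INHBA (0.129 ± 0.088), TGFB3 (0.0661 ± 0.0100), TGFB2 (0.0609 ± 0.0474), BMP6 (0.0437 ± 0.0126) and BMP7 (0.0152 ± 0.0103) to BMP5 (0.00362 ± 0.00245). Every pair of neighbours in that order overlapped in range among steers except BMP7 and BMP5. In calves the order was TGFB1 (1.25 ± 0.23), BMP4 (0.997 ± 0.654), BMP2 (0.543 ± 0.258), TGFB3 (0.225 ± 0.026), GREM1 (0.201 ± 0.129), BMP7 (0.091 ± 0.052), INHBA (0.0779 ± 0.0414), TGFB2 (0.0327 ± 0.0085), BMP6 (0.0118 ± 0.0047) and BMP5 (0.00414 ± 0.00136). There the ranges of neighbours were apart between BMP2 and TGFB3, between TGFB2 and BMP6, and between BMP6 and BMP5, and overlapped elsewhere.

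Other ligands of the superfamily were mostly scarce in rumen. Of 23 listed, 9 were tested, 1 rose and 1 fell, with a median log2 change of 0.00. The other 14 had too few counts, among them INHBC, INHBE, MSTN, GDF6, BMP10 and BMP15 with no count in any library. GDF15, a stress-induced ligand, had 2.73, 0.668, 3.04 and 1.75 CPM in steers 1 to 4, against 0.14, 0.10, 0.0842 and 0 CPM in calves 1 to 4, and every steer lay above every calf (log2 change 4.62 ± 0.80, adjusted p = 0.00469). Its counts in calves were so few that the size of this change is uncertain. GDF1, which acts in left-right patterning in mice, fell by 1.44 ± 0.43 on the log2 scale (adjusted p = 0.0458), at 119 ± 54 CPM in steers and 324 ± 150 CPM in calves with overlapping groups. Its call ended without steer 2, steer 3, steer 4, calf 1, calf 3 or calf 4 (-1.73 to -1.17 with 1 library left out), with the smooth muscle covariate (-2.02), with DESeq2 size factors (-1.44) and with the 50 most abundant genes left out (-1.40). In human and mouse GDF1 is encoded on a transcript shared with CERS1, so the origin of these reads is uncertain.

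Among the other secreted antagonists, follistatin stood out. FST binds and neutralises activins, and it had 0.35, 0.167, 0.205 and 0.947 CPM in steers 1 to 4, against 4.38, 7.70, 3.64 and 13.2 CPM in calves 1 to 4. All steers were below all calves, with a log2 change of -4.08 ± 0.67 (adjusted p = 0.00356). The change was -4.89 without steer 4, the highest of the steers, -3.63 without calf 4 and -3.20 with the smooth muscle covariate, and the call held each time. FST was the 1 gene called of 9 tested, out of 14 listed antagonists of which 11 were in the table, and no gene rose. The 8 uncalled antagonists, which include the BMP binders NOG and CHRD, had log2 changes from -1.26 to 0.82 (lowest adjusted p 0.115), and the median of the 9 was -0.22.

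**Figure D4:**
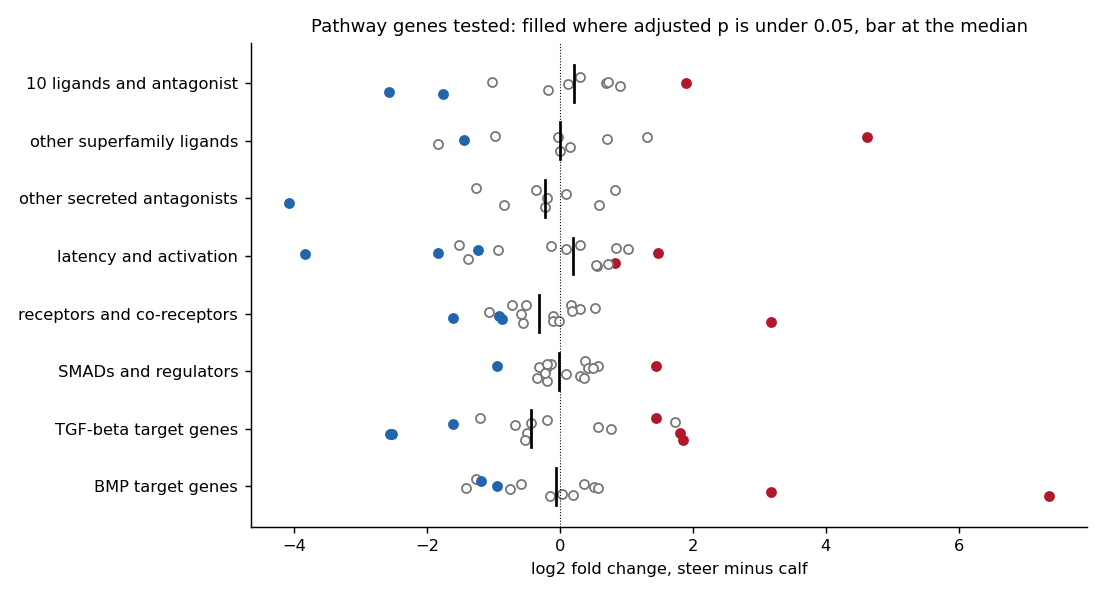
Log2 fold change, steer minus calf, of every tested gene of 8 lists: the 10 genes above and 7 lists of other pathway genes, with filled points where the adjusted p was under 0.05 and a bar at the list's median. Called genes lie on both sides of 0 in 7 of the 8 lists, and medians run from -0.43 to 0.21; FST is the point near -4 among the antagonists and HAND1 the point near 7.

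Genes that store or activate latent ligands moved in both directions. Of 16 tested, 2 rose and 3 fell, and the median log2 change was 0.19. FBN2, a fibrillin typical of fetal matrix, had 1.38, 2.62, 2.27 and 2.23 CPM in steers 1 to 4, against 29.9, 39.9, 20.1 and 31.5 CPM in calves 1 to 4, a log2 change of -3.84 ± 0.30 (adjusted p = 0.000115). Steers and calves were far apart for FBN2, and 14.3% of its span is shared with another gene. LTBP1, which anchors latent TGF-beta in the matrix, fell by 1.85 ± 0.47 on the log2 scale, and BMP1, a protease that cleaves procollagens and chordin, by 1.23 ± 0.24. The fibroblast marker sums were also lower in steers, and their part in these changes was not tested. Both calls ended with the smooth muscle covariate (-1.39 for LTBP1 and -0.76 for BMP1). The LTBP1 call also ended without steer 1, steer 2, steer 3, calf 2 or calf 4 (-2.28 to -1.49 with 1 library left out) and with the basal keratinocyte covariate (-1.76). LTBP2, a relative of LTBP1 that does not itself bind latent TGF-beta, rose to 103 ± 27 CPM in steers, against 37.3 ± 12.1 CPM in calves (log2 change 1.47 ± 0.27, adjusted p = 0.0065). ITGAV, the alpha chain of integrins that release TGF-beta, rose by 0.83 ± 0.23 (adjusted p = 0.0359), a call that ended without steer 2, steer 3, calf 1, calf 3 or calf 4 (0.73 to 0.99 with 1 library left out), with the smooth muscle covariate (0.67) and with library sizes as the sole scaling (0.71).

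Of 16 receptors and co-receptors tested, 1 rose and 3 fell, with a median log2 change of -0.31. The 12 uncalled ones lay between -1.07 and 0.52. The lowest of them, the BMP co-receptor RGMA, named here after its values were seen, averaged 62.6 ± 31.1 CPM in steers and 132 ± 8.6 CPM in calves, and it missed the threshold (adjusted p = 0.0557) although every steer lay below every calf. BAMBI, a decoy receptor that lacks the kinase domain, had 9.95, 7.07, 6.56 and 21.8 CPM in steers 1 to 4, against 1.21, 1.81, 1.31 and 0.711 CPM in calves 1 to 4. The groups did not overlap, and steer 4 was the highest (log2 change 3.17 ± 0.48, adjusted p = 0.00238). With the smooth muscle covariate the change was 3.91 for BAMBI and -2.22 for BMPR1B, and both were called. BMPR1B, a type I BMP receptor, fell by 1.62 ± 0.37 (adjusted p = 0.0167), with 1.82 ± 0.66 CPM in steers and 5.55 ± 1.85 CPM in calves. It lost its call without calf 4 (-1.36) and with the replicate block (-1.62). ENG and ACVRL1, a receptor pair of the endothelium, fell by 0.87 ± 0.20 and 0.92 ± 0.23 on the log2 scale (adjusted p = 0.0151 and 0.0252). The endothelial marker sum was also lower in every steer than in every calf, and 3 of its 10 markers were called lower and none higher; the part of this in the ENG and ACVRL1 changes was not tested. With the smooth muscle covariate both calls ended (-0.71 for ENG and -0.84 for ACVRL1), and that of ACVRL1 also without steer 1, steer 2, steer 3, calf 2 or calf 4 (-1.05 to -0.74 with 1 library left out) and with library sizes as the sole scaling (-1.05). TGFBR1, TGFBR2, BMPR1A and BMPR2 were among the 12 uncalled genes and are named here after their values were seen. The log2 change was 0.18 for TGFBR1 (adjusted p = 0.646), -0.11 for TGFBR2 (0.875), 0.29 for BMPR1A (0.58) and 0.16 for BMPR2 (0.683). They do not stand for all receptors, as BMPR1B and ACVRL1 were called lower.

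In the list of SMADs and their regulators 1 of 16 tested genes rose and 1 fell, with a median of -0.02. None of SMAD1, SMAD2, SMAD3, SMAD5 and SMAD9, which receptors phosphorylate, nor SMAD4, was called, and all 14 uncalled genes lay between -0.35 and 0.57 in log2 change. PMEPA1, a TGF-beta-induced membrane protein that holds back SMAD2 and SMAD3, had 45.3, 46.3, 40.5 and 52.0 CPM in steers 1 to 4, against 14.4, 22.1, 11.4 and 19.5 CPM in calves 1 to 4. Every steer was above every calf (log2 change 1.45 ± 0.23, adjusted p = 0.00341). SMAD6, an inhibitor of BMP signalling, had 11.6, 13.8, 12.03 and 9.47 CPM in steers 1 to 4, against 17.4, 28.1, 20.9 and 23.8 CPM in calves 1 to 4. All steers were lower (log2 change -0.95 ± 0.22, adjusted p = 0.016), and the call ended when calf 2 and steer 4 were both left out (-0.73).

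Genes known from other tissues as TGF-beta targets had no common direction, with 3 of 15 higher, 3 lower and a median of -0.43. PMEPA1 is also on this list. FN1, a matrix and plasma glycoprotein, was higher at 189 ± 150 CPM in steers and 52.3 ± 22.9 CPM in calves (log2 change 1.85 ± 0.55, adjusted p = 0.045). FN1 was highest in steers 2 and 3, and its call ended with the smooth muscle covariate (0.54). The FN1 call also ended without steer 2, steer 3 (1.18), or any 1 calf, with library sizes as the sole scaling (1.78) and with limma-voom (1.66). COL1A1, ELN and CTGF fell by 2.56 ± 0.38, 2.52 ± 0.43 and 1.61 ± 0.41 on the log2 scale. COL1A1 is itself one of the fibroblast markers, and the change of ELN was -1.90 without calf 2, where ELN was highest. CTGF, whose current symbol is CCN2, shares 43.0% of its span with another gene and lost its call without steer 1, steer 3, calf 1 or calf 2 (-1.83 to -1.38 with 1 library left out) and with the smooth muscle (-1.63) or basal keratinocyte covariate (-1.47).

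BMP targets were likewise split, with 2 of 14 tested higher, 2 lower and a median of -0.06. BAMBI and SMAD6 are on this list too and went opposite ways. ID1, a helix-loop-helix inhibitor and a direct BMP target, named here after its values were seen, had 136, 123, 161 and 126 CPM in steers 1 to 4, against 105, 59.8, 51.6 and 167 CPM in calves 1 to 4. Calf 4 lay above all steers and the other 3 calves below them, and ID1 did not pass (log2 change 0.51, adjusted p = 0.356). ID4 fell by 1.19 ± 0.35 on the log2 scale (adjusted p = 0.0426), a call that ended without any 1 library except steer 4 (-1.54 to -1.02 with 1 library left out), with the smooth muscle (-0.79) or basal keratinocyte covariate (-0.95) and with library sizes as the sole scaling (-1.26). ID3 could not be measured, as its whole span is shared with another gene. HAND1, a transcription factor of gut and heart mesoderm, had 4.05, 16.7, 23.8 and 2.10 CPM in steers 1 to 4, against 0.0932, 0.167, 0 and 0 CPM in calves 1 to 4. All steers were above all calves and HAND1 was called higher (adjusted p = 0.00291). With 2 calves at 0 the size of its change is uncertain, and the fitted log2 change ran from 6.75 without steer 3 to 8.51 without calf 2. It was 4.66 with the smooth muscle covariate, 8.02 with the basal keratinocyte covariate and 8.86 without calf 2 and steer 4, and the call held each time.

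For each called member the gene with the most similar pattern was sought among 10814 other genes of at least 5 CPM on average, by the mean absolute difference in centred log2 CPM over the 8 libraries. For TGFB3 it was SCG5, a secretory granule protein of neuroendocrine cells, with a mean difference of 0.11 and 3.08 ± 0.56 CPM in steers against 8.58 ± 1.07 CPM in calves. LACTB2, a mitochondrial nuclease, was nearest to BMP6 with a mean difference of 0.14, and had 10.6 ± 3.3 CPM in steers and 3.16 ± 0.57 CPM in calves. The nearest to BMP7 was NEURL1B, a ubiquitin ligase of the Notch pathway, at a mean difference of 0.29, with 7.13 ± 2.68 CPM in steers and 34.3 ± 10.2 CPM in calves. All 3 were called in the same direction as the member they were matched to, which the choice by pattern makes likely.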

How the data were processed

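Total RNA of 8 rumen samples, 1 per animal, was copied with random hexamers and dUTP in the second strand and sequenced from both ends, per the labels' protocols. The submitters' processing notes name Trimmomatic 0.39, STAR 2.7.11a, featureCounts 2.0.2 and DESeq2 1.42.0. The deposited values are raw counts. Per the file headers, the authors counted over whole transcript spans of each gene name, so reads in introns count, with no strand option and without counting read pairs. Both mates therefore add to a count, and 86.9% to 89.0% of counts from 1 to 10 were even. Reads in more than 1 gene were dropped. Antisense reads cannot be told apart. The build is not named in the file or labels. The counted length in the same file is in bases, per the file headers. An assembly table of ARS-UCD2.0 gave symbols (83.4% of 33132 matched) and chromosome numbers only.

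The comparison of steers with calves used edgeR 4.0.16 under R 4.3.3, with filterByExpr by group, TMM scaling, a robust quasi-likelihood fit and Benjamini-Hochberg adjustment over all genes tested. Printed adjusted p-values come from that fit unless another is named, and SE was taken from the log2 change and the F value. CPM used TMM-scaled library sizes. The procedure was tested on simulated data. Counts of libraries in a group differed beyond sampling noise (chi-square over degrees of freedom at least 112), and none was treated as a duplicate. Replicates are animals, and p-values weigh the difference between steers and calves against the spread between animals of a group. Alternatives were 3 scalings, 2 filters, DESeq2 1.42.0, limma-voom (limma 3.58.1), no robust dispersion, a replicate block, counts halved to pairs, 2 marker covariates, removal of the 50 most abundant genes, removal of each library, and calf 2 and steer 4 left out together, which was chosen after seeing the data. The genes, lists and tests were chosen with earlier results of these data known. Genes named from the lists were up to 3 called per direction with the largest change and at least 1 CPM in the higher group, beside all 10 members and, for each called member, the gene nearest in pattern. Genes named outside this rule are marked as such. A gene that the rule names is not reported here.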

Additional observations from a re-analysis of the deposited data

Results flagged for a closer look

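GREM1 in steer 4, at 9.75 CPM, lay far from the other 3 steers, which had 1.40, 0.612 and 2.05 CPM. The gap to the nearest steer was 0.843 of the whole range of the group, above Dixon's 95% critical value for 4 samples. Chance flags about 1 in 20 groups, and 20 groups (10 genes in steers and in calves) were examined here. BMP2, BMP4 and BMP6 were also highest among steers in that library. The smooth muscle marker sum of steer 4, 9482 CPM, was the lowest of the steers (45346 to 92889 CPM in the other 3).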

How the results depend on the processing

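The calls of TGFB3 and BMP6 held in all 22 alternatives, and BMP7 lost its call with either marker covariate only. With the smooth muscle covariate 2 members were called higher and 1 lower, BMP2 being the added one, and with the basal keratinocyte covariate 1 lower, BMP6 staying the 1 higher. Leaving out 1 library gave 3 called members each time (1 higher, 2 lower). Over all genes 2752 were called, 1257 higher and 1495 lower in steers. Leaving out 1 library gave 1734 to 3257 calls, 705 to 1473 higher. With library sizes as the sole scaling, 835 genes were called higher and 1555 lower (34.9% higher, against 45.7%) and shifted the median log2 change by -0.11. DESeq2 called 1944 genes higher, and the basal keratinocyte covariate 791. The cause of these shifts was not tested. Same-numbered steers and calves correlated at -0.33 to 0.28 in their deviations from the group means. No steer correlated best with the calf of its own number, and among calves only calf 1 did so with its steer. So few animals cannot show whether the numbers pair them, and the main fit treated the animals as unpaired. With the replicate block 1831 genes were called, 785 higher, and the members' calls were as in the unblocked fit. Among genes named from the other lists, the calls of GDF1, ITGAV, ACVRL1, BMPR1B, FN1, CTGF and ID4 ended with that block. Signs turned only for uncalled members. GREM1 was -0.22 with limma-voom, -0.58 with the replicate block, and -0.91 without calf 2 and steer 4 together. With 1 library left out GREM1 ran from -1.23 to 0.46, BMP5 from -0.70 to 0.073 and BMP2 from -0.071 to 1.01. BMP5 was 9.4e-04 without calf 2 and steer 4. With the smooth muscle covariate TGFB1 was -0.22, TGFB2 -0.30 and INHBA -0.039. BMP5 had too few counts for the filter of 1 CPM in 4 libraries. The alternative with coding length was not run, so levels between genes rest on the counted length alone.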
